A study of Mus musculus with 14 samples.

Results

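Protocadherins are cadherin-type adhesion proteins of the neuronal surface. The genes described here are the rows of the expression table whose symbol starts with Pcdh, chosen by name alone: 70 of 31507 genes, with 69 symbols because 2 rows carry the symbol Pcdha11. Of these, 58 are clustered, namely 14 alpha genes (Pcdha), 22 beta genes (Pcdhb) and 22 gamma genes (Pcdhg), and 12 are the non-clustered members. The brain tissue came from mice in 3 groups. Sham-operated mice gave 3 samples, mice with an intracerebral haemorrhage made with autologous blood (ICH) gave 2, and mice with such a haemorrhage that were needled at the GV20 point for 7 days (acupuncture) gave 2. Each sample had a library of RNA fragments pulled down with an antibody against the RNA mark N6-methyladenosine (m6A; the IP library) and a library of unselected poly(A) RNA (the input library). The sources do not give strain, sex, age, the part of the brain taken or the time of collection. The labels do not say whether the samples of a group were different animals. All p-values therefore reflect sample-to-sample spread alone, and that spread may be technical.

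A clustered protocadherin is made from 1 variable first exon, each with a promoter of its own. Alpha and gamma transcripts splice that exon to constant exons shared by their whole cluster, whereas beta genes consist of a single coding exon. A neuron switches on only some of the variable exons, with the DNA-binding protein CTCF and cohesin bringing promoters to distant enhancers, and the resulting set of proteins lets neurites of a cell recognise and avoid each other. The C-type genes at the end of the alpha and gamma clusters (Pcdhac1, Pcdhac2, Pcdhgc3, Pcdhgc4, Pcdhgc5) are known to be expressed more uniformly among neurons. The non-clustered members, many of them called delta protocadherins, act in cell sorting, axon growth and synapse formation. m6A lies mostly near stop codons and in long exons of messenger RNAs.

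The sequences just before the first base of 3 non-clustered genes are shown to place 3 genes that recur below, although no value below was computed from them. Pcdh10 and Pcdh17 carried an m6A peak that began exactly at the annotated first base in all 3 groups, and Pcdh9, whose first peak began 8 bp inside the gene, had a lower level after acupuncture. Each line holds the 250 bases upstream of the first base, 5′ to 3′ on the gene's strand, from RefSeq's promoter table for GRCm38.p6, with every CG in capitals. They lie at chr3:45378148-45378397 on the plus strand for Pcdh10, at chr14:84443313-84443562 on the plus strand for Pcdh17 and at chr14:93890680-93890929 on the minus strand for Pcdh9.
Pcdh10: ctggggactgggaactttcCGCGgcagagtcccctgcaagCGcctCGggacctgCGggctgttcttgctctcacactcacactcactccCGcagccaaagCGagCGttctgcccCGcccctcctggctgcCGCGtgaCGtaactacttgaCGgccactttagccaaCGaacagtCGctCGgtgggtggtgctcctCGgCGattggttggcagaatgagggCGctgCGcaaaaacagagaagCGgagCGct
Pcdh17: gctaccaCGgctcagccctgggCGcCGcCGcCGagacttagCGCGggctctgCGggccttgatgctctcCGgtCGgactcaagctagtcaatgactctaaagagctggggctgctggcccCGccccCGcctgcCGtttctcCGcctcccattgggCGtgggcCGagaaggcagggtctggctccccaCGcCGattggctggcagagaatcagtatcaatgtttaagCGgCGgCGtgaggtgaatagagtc
Pcdh9: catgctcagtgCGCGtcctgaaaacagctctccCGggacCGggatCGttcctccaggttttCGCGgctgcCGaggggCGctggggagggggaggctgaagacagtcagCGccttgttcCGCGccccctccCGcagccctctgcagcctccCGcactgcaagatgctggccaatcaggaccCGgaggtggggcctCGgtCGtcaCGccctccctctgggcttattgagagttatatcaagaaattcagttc
The pair CG, the target of DNA methylation, occurred 22, 21 and 18 times in these 3 stretches. The table held 10 windows of 300 bases (250 before to 50 after the first base) for 9 of the 69 member symbols, all non-clustered, and Pcdh9 had 2 of them. The median number of CG in these 10 windows was 18, against 7 over all 32851 windows of the table. The lowest member was Pcdh20 with 4, and the highest was Pcdh17 with 26.

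The 4 most abundant members per length came from 2 classes. Pcdhgc3, a gamma gene of C type, had the highest mean over the 7 input libraries at 24.7 FPKM (fragments normalised to gene length and library size), a level above 95.2% of all genes. Its level was 19.1, 20.7 and 21.97 FPKM in sham, 30.1 and 24.7 in ICH, and 30.0 and 26.2 in acupuncture, so every haemorrhage library lay above every sham library. Pcdhgc5, its neighbour, followed with a mean of 22.9 FPKM and overlapped between the groups, from 20.7 to 26.6 FPKM in sham, with 26.6 and 17.7 in ICH and 23.6 and 22.8 in acupuncture. Pcdh1, an adhesion protein of epithelium and brain, had a mean of 20.5 FPKM, from 18.3 to 24.6 over the 7 libraries. Pcdh9, a delta protocadherin of cortical and other neurons, had a mean of 15.7 FPKM. The ranges of Pcdhgc3, Pcdhgc5 and Pcdh1 overlapped, so their order is not fixed by these libraries.

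Levels fell off quickly below these genes, and beta genes were uniformly low. Only 7 members exceeded a mean of 10 FPKM, the other 3 being Pcdh7 (11.2 FPKM), Pcdh10 (11.0) and the alpha gene of C type Pcdhac2 (10.1). The median of the members' means was 1.02 FPKM for alpha, 1.17 for beta, 3.78 for gamma and 4.16 for the non-clustered genes. No beta gene exceeded 3.35 FPKM, the level of Pcdhb9, and the next 4 were Pcdhb20 (3.15 FPKM), Pcdhb17 (2.65), Pcdhb12 (2.03) and Pcdhb7 (1.90). Among alpha genes, Pcdhac2 was followed by Pcdha12 (3.18), Pcdha4 (2.25), Pcdha6 (2.11) and Pcdha5 (1.41), and among gamma genes the 2 C-type genes were followed by Pcdhga11 (7.14), Pcdhgb6 (5.61) and Pcdhga3 (5.33). The fifth non-clustered gene was Pcdh17, a delta protocadherin of corticostriatal circuits, at 5.28 FPKM. The lowest members were Pcdhb1 (0.0191 FPKM), Pcdha8 (0.0453) and Pcdh12 (0.0819), the last an endothelial protocadherin. Because alpha and gamma genes share exons, and beta genes resemble each other closely, the split of reads between them rests on the authors' counting and single-gene values in the clusters are uncertain.

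**Figure D1:**
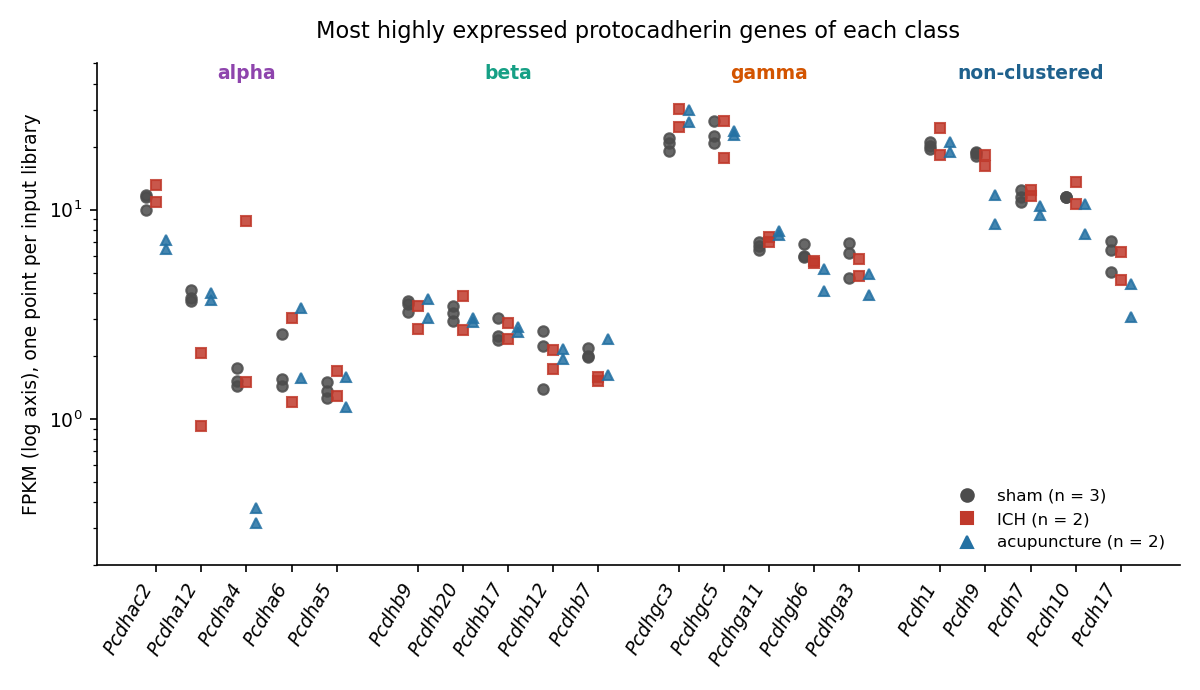
FPKM (log axis) of the 5 protocadherin genes with the highest mean in each class; each point is 1 input library, with sham as grey circles, ICH as red squares and acupuncture as blue triangles. Pcdhgc3, Pcdhgc5 and Pcdh1 lie highest, and the acupuncture points of Pcdh9 and Pcdhac2 lie below those of both other groups.

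Of the 70 members, 51 reached a mean of 1 FPKM over the 7 libraries and were tested: 8 alpha, 13 beta, 20 gamma and 10 non-clustered. The filter was not neutral for all of them, since 10 of the 51 were below 1 FPKM in the mean of at least 1 group, and 8 of the 19 untested rows reached it in some group. Across all genes, ICH replicate 2 stood apart, correlating with ICH replicate 1 at 0.942 across genes, which are not independent replicates, while ICH replicate 1 correlated at 0.975 and 0.969 with the acupuncture libraries and sham libraries at 0.983 to 0.988 with each other. Acupuncture replicate 2 differed in another way: its 8 choroid plexus and ependyma genes summed to 6.17 FPKM, against 342 to 495 FPKM in the other 6 libraries. FPKM totals per library lay between 179810 and 198472, and read depth is unknown because no counts were given. In these bulk samples, fewer cells of a type and less RNA per cell cannot be told apart.

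The first comparison, ICH against sham, addressed the effect of the haemorrhage. Only 1 of the 51 protocadherin genes passed the threshold (limma, Benjamini-Hochberg adjusted p under 0.05 over all 13666 genes tested), beside 5.68% of all genes tested. That gene was Pcdha12, a variable alpha gene (chr18:37020149-37187657, GRCm38), which was lower in ICH. Of all genes called, 99 were lower and 677 higher. The median log2 fold change was 0.01 for the 41 clustered and 0.02 for the 10 non-clustered genes, against -0.01 over all genes. At an unadjusted p under 0.05 stood 2 of the 51 members, against 21.5% of all genes.

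Pcdha12 had 3.76, 4.15 and 3.66 FPKM in sham, 2.07 and 0.922 in ICH, and 3.70 and 4.01 in acupuncture. Both ICH libraries thus lay below the other 5, and both acupuncture libraries lay within the sham range. The mean went from 3.86 ± 0.257 FPKM (SD, n = 3) in sham to 1.49 ± 0.809 (SD, n = 2) in ICH, a log2 fold change of -0.999 on the scale of FPKM + 1 (SE 0.19, limma adjusted p = 0.0283), a scale that understates changes of low genes. The adjusted p was 0.0994, 0.104 and 0.0903 without sham replicates 1, 2 and 3, 0.0607 and 0.0606 without acupuncture replicates 1 and 2, 0.0868 with no filter on low values and 0.0612 with only the ICH and sham libraries in the fit, so the call did not hold there. Without ICH replicate 1 the log2 fold change was -1.34, and without ICH replicate 2 it was -0.66; each leaves 1 ICH library, assumed to vary like the other groups, so their tests add no support. The count of called members was 4 without ICH replicate 1 (Pcdha4 higher; Pcdha12, Pcdhga12 and Pcdha7 lower), in a fit that called 38.1% of all genes.

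The 5 members with the next smallest p in ICH against sham did not pass. Pcdhgc3 stood at 0.39 on the log2 scale (SE 0.12, limma adjusted p = 0.140), with both ICH libraries above all 3 of sham. Pcdhga2 stood at 0.59 (SE 0.29), Pcdha4 at 0.95 (SE 0.50), Pcdhb7 at -0.25 (SE 0.13) and Pcdhgb5 at -0.37 (SE 0.22), with adjusted p from 0.278 to 0.349. The value of Pcdhga2 was 0.16 without ICH replicate 1 and 1.02 without ICH replicate 2. Groups did not overlap for 4 members lower in ICH (Pcdha12, Pcdhb7, Pcdhgb5, Pcdhgb6) and 5 higher (Pcdh19, Pcdhb5, Pcdhb13, Pcdhgb1, Pcdhgc3), against 18.8% lower and 21.5% higher of all genes. Those shares of 51 are below the background in both directions.

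The other comparisons asked what acupuncture did to haemorrhagic tissue and how far the treated tissue stood from sham. After acupuncture, all 10 tested non-clustered genes had lower values than in ICH, and all 10 had lower values than in sham, while 44.0% and 44.2% of all genes were lower. The 2 comparisons share the acupuncture libraries, so the second count is not independent of the first. The filter left out Pcdh12 and Pcdh15, whose acupuncture means of 0.0893 and 0.871 FPKM were above those of sham (0.0775 and 0.859). Against ICH (0.0811 and 1.14) Pcdh12 was higher and Pcdh15 lower. Pcdh11x, among the 10 tested, passed the filter only through sham and ICH. The median log2 fold change of these 10 genes was -0.37 against ICH and -0.35 against sham, where the medians over all genes were 0.05 and 0.04. Of the 41 clustered genes, 26 were lower in each comparison, with medians of -0.13 and -0.08. The clustered median was -0.064 without acupuncture replicate 1 against ICH, and against sham it ran from -0.129 without acupuncture replicate 2 to -0.019 without sham replicate 2. Whether the classes differ was not tested.

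The summed levels of 2 classes, non-clustered and alpha, were lower in both acupuncture libraries than in the other 5. The mean beta sum was also lowest in acupuncture, at 26.9 FPKM against 30.9 in sham and 30.2 in ICH. Its acupuncture libraries (24.8 and 29.02) overlapped those of ICH (29.00 and 31.4). The 12 non-clustered genes summed to 84.2, 82.0 and 86.2 FPKM in sham, 84.1 and 86.0 in ICH, and 63.3 and 65.8 in acupuncture. Both acupuncture libraries lay below the other 5. The sum of the 14 alpha genes did likewise, with 26.5, 28.9 and 26.2 FPKM in sham, 24.2 and 32.2 in ICH, and 21.0 and 20.2 in acupuncture. Much of that alpha difference lay in Pcdhac2. Its mean went from 11.1 FPKM in sham to 6.82 in acupuncture, while the alpha sum went from a mean of 27.2 to 20.6. Of the 8 tested alpha genes, 5 were lower and 3 higher than in sham. The 58 clustered genes together summed to 169, 177 and 164 FPKM in sham, 181 and 182 in ICH, and 163 and 164 in acupuncture, so that acupuncture lay just under the sham range. Leaving out any 1 library left 9 or 10 of the 10 non-clustered genes lower in both comparisons.

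**Figure D2:**
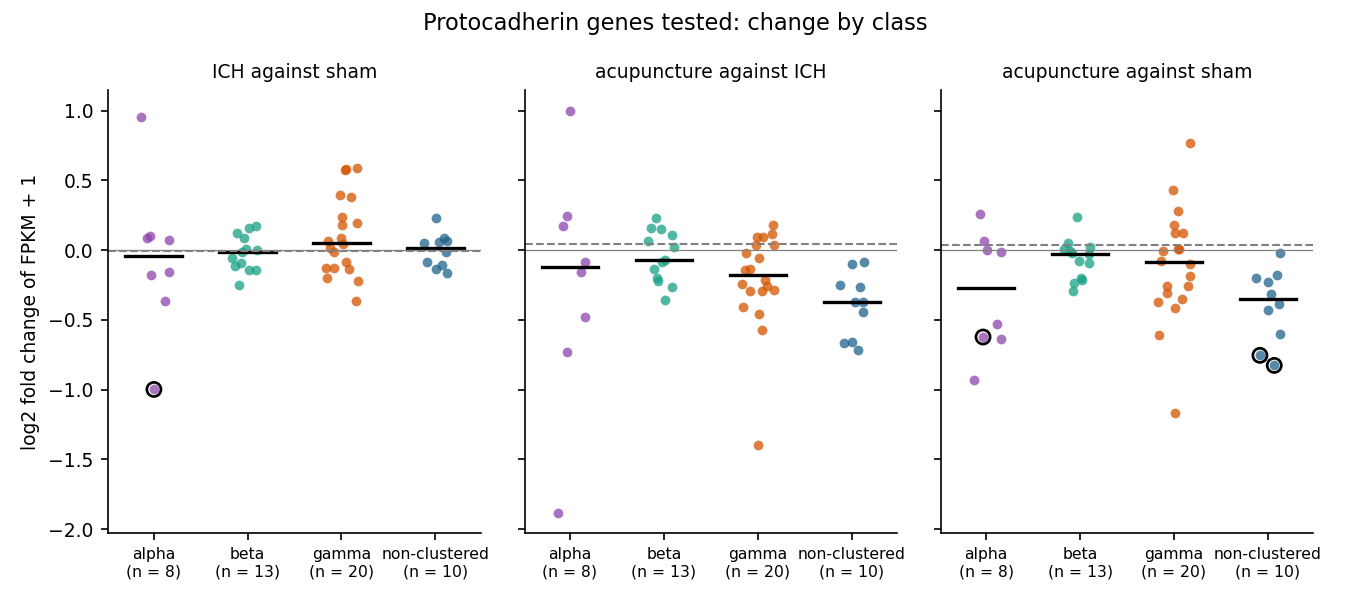
Log2 fold change of FPKM + 1 for each of the 51 tested protocadherin genes by class, in 3 comparisons; short black lines are class medians, the dashed line is the median over all genes tested, and black rings mark genes past an adjusted p of 0.05. All 10 non-clustered points lie below 0 in both comparisons with acupuncture, and 1 and 3 genes are ringed in ICH and in acupuncture against sham.

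Against sham, 3 of the 51 members fell after acupuncture and 0 rose, beside 440 and 1158 of all 13666 genes tested (11.7% called). The 3 were Pcdh9, Pcdh11x and Pcdhac2. None of them was called with the replicate number as a block, where 5.49% of all genes were. Pcdh9 (chr14:93013410-93890679, GRCm38) had 18.7, 18.1 and 18.8 FPKM in sham, 16.1 and 18.2 in ICH, and 11.7 and 8.55 in acupuncture. Both acupuncture libraries were below the other 5. Its log2 fold change against sham was -0.83 (SE 0.14, limma adjusted p = 0.00952), and without acupuncture replicate 2 it was -0.62 with an adjusted p of 0.0511.

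Pcdh11x, an X-linked delta protocadherin, had 1.62, 1.26 and 1.34 FPKM in sham, 1.10 and 1.42 in ICH, and 0.595 and 0.269 in acupuncture, again without overlap. It fell by 0.75 on the log2 scale (SE 0.15, limma adjusted p = 0.0206). Its acupuncture mean of 0.432 FPKM was below the filter, which it passed through sham (1.41) and ICH (1.26). Its call was lost without any 1 sham library (adjusted p of 0.0875, 0.0531 and 0.0736 for replicates 1 to 3), without acupuncture replicate 2 (0.117) and with no filter on low values (0.0543). Pcdhac2, a C-type alpha gene known for the tiling of serotonergic axons, had 9.99, 11.7 and 11.5 FPKM in sham, 10.9 and 13.1 in ICH, and 6.50 and 7.13 in acupuncture. It fell by 0.62 against sham (SE 0.12, limma adjusted p = 0.0169), and both acupuncture libraries were below the other 5. Its adjusted p was 0.0648 and 0.0774 without sham replicates 2 and 3, and 0.123 and 0.0741 without acupuncture replicates 1 and 2.

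The next members by p against sham stayed short of the threshold. Pcdhgc3, whose protein is known to bind Axin1 and to shape dendrites, stood at 0.43 on the log2 scale (SE 0.12, limma adjusted p = 0.0746), and 0.0195 when ICH libraries were left out of the fit. Pcdhga8 stood at -1.16 (SE 0.36, limma adjusted p = 0.0888), with -1.67 without acupuncture replicate 1 and -0.66 without replicate 2, and Pcdhgb6 at -0.37 (SE 0.12, limma adjusted p = 0.0956; 0.0455 with quantile normalization). With ICH left out of the fit, 6 members passed where 23.5% of all genes did, the others being Pcdha4 (lower) and Pcdhga2 (higher) beside the 3 above and Pcdhgc3. Only 1 passed without sham replicate 3 and only 1, Pcdhgb1, without acupuncture replicate 2, where 6.39% and 5.89% of all genes did. At an unadjusted p under 0.05 stood 11 of 51 members, against 25.5% of all genes.

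Against ICH, limma called 0 of the 51 members and 0.0366% of all genes tested, 8 of 51 members stood at an unadjusted p under 0.05, and so did 20.2% of all genes. The smallest p belonged to Pcdhac2, at -0.73 (SE 0.13, limma adjusted p = 0.140), Pcdh9, at -0.72 (SE 0.15, limma adjusted p = 0.170), and Pcdha12, at 1.0 (SE 0.21, limma adjusted p = 0.171). Pcdh11x stood at -0.67, Pcdh19 at -0.66 and Pcdhga8 at -1.40, the last with -1.90 and -0.90 without acupuncture replicates 1 and 2. Pcdh19, a delta protocadherin whose loss causes an X-linked epilepsy, had 3.76, 2.64 and 4.11 FPKM in sham, 4.18 and 4.30 in ICH, and 2.34 and 2.29 in acupuncture. Its acupuncture libraries lay below both other groups. Without ICH replicate 1, which leaves 1 ICH library whose spread is taken from the other groups, 8 members were called, 6 lower and 2 higher, but so were 37.4% of all genes. With the filter lowered to a mean of 0.1 FPKM, 1 member was called, Pcdhb19, beside 0.0292% of all genes.

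**Figure D3:**
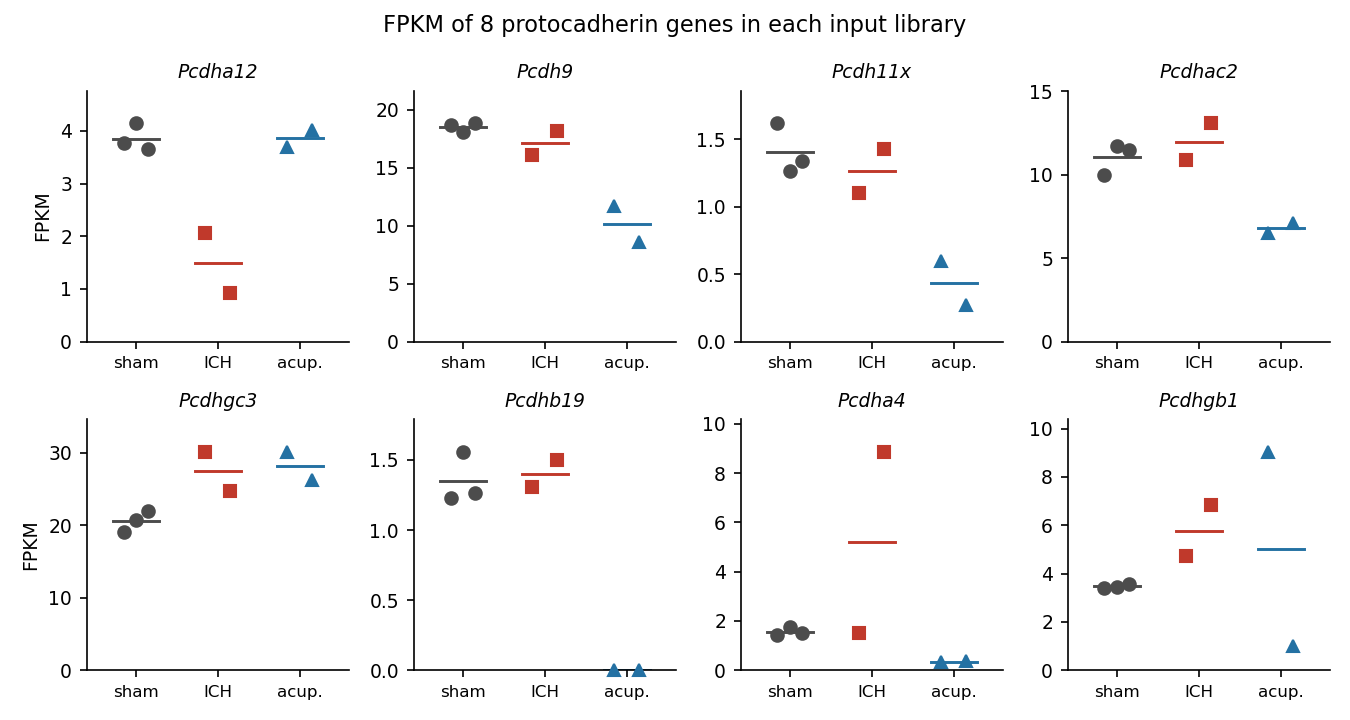
FPKM of 8 protocadherin genes in each input library, with a line at each group's mean (sham n = 3, ICH n = 2, acupuncture n = 2). Pcdh9, Pcdh11x and Pcdhac2 are lowest in acupuncture, Pcdha12 is lowest in ICH, Pcdhb19 is listed at 0 in acupuncture, and Pcdha4 and Pcdhgb1 each have 1 library far from its partner.

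The groups did not overlap for 6 of the 10 non-clustered genes against ICH, all of them lower in acupuncture (Pcdh7, Pcdh8, Pcdh9, Pcdh11x, Pcdh17, Pcdh19), where 20.7% of all genes were lower without overlap. Against sham it was 8 of 10, with Pcdh10 and Pcdh18 in addition, beside 23.4% of all genes. Of the 41 clustered genes, 11 were lower without overlap in each comparison, and 5 and 4 were higher, where 28.8% and 31.8% of all genes were. Pcdh17 had 6.45, 5.03 and 7.11 FPKM in sham, 4.59 and 6.27 in ICH, and 3.06 and 4.44 in acupuncture. Pcdh8, which takes part in the turnover of synaptic N-cadherin, had 5.28, 4.40 and 5.91 in sham, 5.06 and 5.12 in ICH, and 4.23 and 3.25 in acupuncture. Pcdh10, a delta protocadherin linked to synapse elimination, had 11.5 in each sham library, 10.6 and 13.6 in ICH, and 7.68 and 10.7 in acupuncture, so that its acupuncture and ICH libraries overlapped. Pcdh1 and Pcdh20 overlapped in both comparisons.

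When both haemorrhage groups were joined, 4 libraries against 3 of sham, limma called 0 of the 51 members beside 8.22% of all genes, and 2 members stood at an unadjusted p under 0.05, against 20.5% of all genes. Pcdhgc3 came nearest, at 0.41 on the log2 scale (SE 0.11, limma adjusted p = 0.0547), with all 4 haemorrhage libraries above all 3 of sham. Pcdhgb6 was the reverse, with all 4 below sham and a value of -0.25 on that scale (limma adjusted p = 0.294). These were the only 2 members whose joined group did not overlap sham, against 9.18% of all genes lower and 14.4% higher. Without ICH replicate 2, Pcdhgc3 (adjusted p = 0.0111) and Pcdhga2 (0.0215) were called, as were 15.8% of all genes. A contrast of the mean of the 2 haemorrhage groups with sham in the 3-group fit, chosen after the data were seen, called 1 member, Pcdh9 (adjusted p = 0.0449), and 10.6% of all genes.

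In some clustered genes 1 library lay far from its partner. Pcdha4 had 1.44, 1.74 and 1.53 FPKM in sham and 0.319 and 0.378 in acupuncture, but 1.504 in ICH replicate 1 and 8.87 in ICH replicate 2. Its log2 fold change in ICH against sham was 1.94 without ICH replicate 1 and -0.04 without ICH replicate 2, so 1 library set its direction. Pcdhgb1 had 3.41, 3.43 and 3.59 in sham, 4.72 and 6.83 in ICH, and 9.04 and 1.01 in acupuncture. Pcdhga8 was at 1.01 FPKM in acupuncture replicate 1 and listed at 0 in replicate 2, with 1.46 to 2.98 in sham and 1.95 and 3.74 in ICH. Pcdhb19 differed between groups instead (untested, mean under 1 FPKM), with 1.23, 1.56 and 1.27 in sham and 1.31 and 1.498 in ICH, and it was listed at 0 in both acupuncture libraries. Those zeros stand beside 2 m6A peaks named Pcdhb19 in the authors' acupuncture list, so an FPKM of 0 is not shown to be absence of the transcript.

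Several lists of cell type markers, but not all, differed between the same groups. The 13 general neuron markers, all above 0 in every library, summed to 1401 to 1494 FPKM in sham, 1324 to 1555 in ICH and 1231 to 1336 in acupuncture, and limma called 0 of 13 in any comparison, with 3, 4, 2 and 3 at an unadjusted p under 0.05 in ICH against sham, acupuncture against ICH, acupuncture against sham and the joined comparison. Their median log2 fold change was -0.22 against ICH and -0.14 against sham in acupuncture. The 10 excitatory neuron markers had medians of -0.12 and 0.20 there, and the 9 inhibitory ones 0.20 and 0.07. The 12 striatal markers summed to 557 to 603, 260 to 315 and 194 to 251 FPKM. Limma called 9 of them lower in ICH and 12 in acupuncture against sham, beside 99 and 440 of all 13666 genes tested. The 10 thalamic markers summed to 73.6 to 115, 49.6 to 52.9 and 28.8 to 78.0 FPKM, with 6 called lower in acupuncture against sham. The 9 oligodendrocyte markers summed to 1157 to 1478, 955 to 996 and 642 to 997 FPKM, with 3 called lower there. The 12 markers of microglia and macrophages summed to 109 to 135, 642 to 644 and 831 to 853 FPKM, and the 9 astrocyte markers to 455 to 496, 848 to 899 and 798 to 986 FPKM. The part of these shifts in the protocadherin levels was not tested.

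Of 22 genes known to regulate the clusters, such as Ctcf and the cohesin subunit Rad21, 20 were tested. Limma called 0 of them in any of the 4 comparisons, with 7, 4, 2 and 1 at an unadjusted p under 0.05 in ICH against sham, acupuncture against ICH, acupuncture against sham and the joined comparison. Of 28 partners and processing enzymes of protocadherins, 27 were tested. Against sham, 3 rose in ICH and 0 fell: Wasf2 (log2 fold change 0.68, limma adjusted p = 0.0114) and Cyfip1 (0.65, limma adjusted p = 0.0161), both of the WAVE complex that drives actin branching, and Adam10 (0.45, limma adjusted p = 0.0275), the protease that sheds the outer part of protocadherins. Against sham, 3 rose in acupuncture, Rhoa, Wasf2 and Cyfip1 (0.61, 0.55 and 0.53), and 1 fell, Prkcd (-1.43), which is also on the list of thalamic markers. Of 25 other cadherin genes tested, Cdh5, the cadherin of endothelial junctions, rose in both (0.57 and 0.62) beside a summed level of 10 endothelial markers, Cdh5 among them, of 54.7 to 59.8 FPKM in sham, 74.5 to 81.5 in ICH and 117 to 118 in acupuncture, a link that was not tested. Cdh8, a neuronal classical cadherin, fell in acupuncture against sham (-0.71, limma adjusted p = 0.00762). In acupuncture against ICH limma called 0 genes of the 3 lists, with 4, 6 and 8 of them at an unadjusted p under 0.05. In the joined comparison Wasf2, Cyfip1, Adam10 and Cdh5 rose.

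The m6A data came as 1 peak list per group, so there is no replicate error, and each enrichment below is the authors' deposited log2 of IP over input. Protocadherin names were attached to 140 of 48251 peaks in sham, 154 of 54754 in ICH and 147 of 50105 in acupuncture, on 48, 52 and 52 symbols. Their enrichment was higher than usual: 37.9%, 40.3% and 37.4% of them reached a log2 of 2, against 15.5%, 19.4% and 15.0% of all peaks. In sham the median was 2.82 for alpha, 2.30 for beta, 1.56 for gamma and 1.10 for non-clustered peaks, against 1.07 for all peaks. Alpha, beta and gamma peaks lay above the median of all peaks in ICH as well (2.92, 2.06 and 1.62 against 1.24) and in acupuncture (2.09, 2.42 and 1.21 against 1.12). Non-clustered peaks did too, at 1.47 in ICH and 1.23 in acupuncture, the latter just above gamma. Within 1 window of expression, 1 to under 5 FPKM, chosen after the data were seen, the members' peaks had medians of 1.46, 1.71 and 1.599 and those of other genes 1.05, 1.16 and 1.09.

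**Figure D4:**
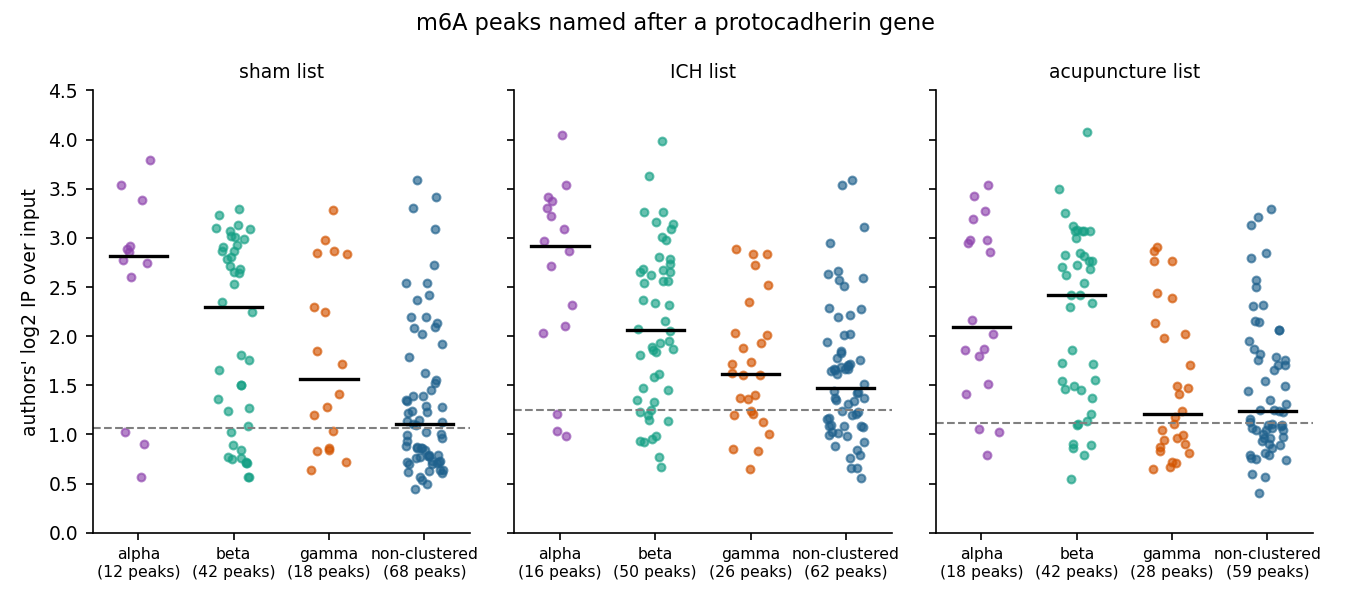
The authors' log2 of IP over input for each peak named after a protocadherin gene, by class and group list; black lines are class medians and the dashed line is the median of all peaks of that list. Alpha and beta medians lie above 2 in every list, and the non-clustered medians of 1.10, 1.47 and 1.23 lie nearer to the dashed lines at 1.07, 1.24 and 1.12.

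Almost every beta gene was marked: 21 of 22 carried a named peak in each of the 3 lists, the exception being Pcdhb1, whose RNA was near 0. Among non-clustered genes 11 of 12 carried one in each list, the exception being Pcdh12. Named peaks were rarer for alpha genes (5, 7 and 9 of 14 in sham, ICH and acupuncture) and gamma genes (11, 14 and 12 of 22). A peak carries 1 name even where genes overlap, and both rows of Pcdha11 are counted with its peaks. All 14 alpha and all 22 gamma genes had a same-strand peak somewhere over their first 2000 bp in each list, in part through peaks that span several genes. When peaks over 5000 bp were left out, 4, 6 and 8 alpha and 7, 11 and 9 gamma genes remained. Of the 51 tested members, 68.6%, 70.6% and 74.5% carried a named peak, against 93.6%, 94.3% and 94.0% of all tested genes.

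Of the sham peaks, 92.9% of the beta, 73.5% of the non-clustered, 33.3% of the alpha and 22.2% of the gamma peaks were annotated by the authors to the 3′ UTR, against 54.5% of all peaks. Gamma peaks were annotated to the 5′ UTR in 50.0%, against 11.6% of all. Each peak has 1 label however wide it is, and 21 of the 42 beta and 12 of the 18 gamma peaks were over 2000 bp. The peak of Pcdhb9 labelled 3′ UTR (3050 bp) began at the gene's first base. The peak named Pcdhgc3 and labelled 5′ UTR (37914 bp) began far upstream of that gene. These labels therefore do not place the mark within a UTR. The highest enrichment among protocadherin peaks of the acupuncture list was 4.07 for the beta gene Pcdhb4, whose peak had 3.29 in sham and 3.63 in ICH. The input level of Pcdhb4 was low, with a mean of 0.498 FPKM. Pcdh17 and Pcdh10 carried the peaks at the first base that follow the sequences above: Pcdh17 had 3.31 in sham, 3.11 in ICH and 2.80 in acupuncture, and Pcdh10 had 2.73, 2.57 and 2.30. The peak of Pcdh10 was 3675 bp wide in sham and 3250 in ICH, and in the acupuncture list it was joined with the next to 21365 bp, so its last value covers more sequence. Of the members' ICH peaks 89.0% overlapped a sham peak, against 71.0% of all ICH peaks, and of their sham peaks 82.1% overlapped an ICH peak, against 80.2% of all. Any shared base counted as overlap, and the members' ICH peaks were wider, with a median of 1287.5 bp against 575 bp. With a reciprocal overlap of 50%, the shares of ICH peaks were 53.9% and 46.7%.

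The authors' 3 differential tables, which list only peaks with a p under 0.05 or no p, named protocadherin genes in 66 peaks for ICH against sham, 43 for acupuncture against ICH and 46 for acupuncture against sham. Only 61, 30 and 32 of them had an authors' adjusted p under 0.05. Of those, 36, 8 and 16 were higher in the first group, where 79.5%, 15.6% and 59.0% of all such peaks were. The counts below use every listed peak. Of the 66, 39 were higher in ICH, whereas 78.7% of all listed peaks were. Acupuncture against ICH had 16 of 43 higher, where 18.7% of all were, and acupuncture against sham had 21 of 46, where 58.2% of all were. By class in ICH against sham, 5 of 6 alpha, 13 of 17 beta, 6 of 15 gamma and 15 of 28 non-clustered peaks were higher. Several peaks share a gene or a cluster, so they are not independent.

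Direction went with width and position among the 66 peaks of ICH against sham, in 3 splits that were all made after the data were seen. Of the 31 peaks of at most 700 bp, 29 were higher in ICH (84.7% of all such peaks), and of the 31 over 2000 bp, 7 were higher (66.9% of all). Within 100 bp of the gene's end 13 of 14 were higher, and farther away 26 of 52 (84.9% and 75.3% of all). By the authors' annotation, 33 of 45 in the 3′ UTR and 3 of 14 in the 5′ UTR were higher (81.0% and 77.5% of all). The wide member peaks and those labelled 5′ UTR therefore departed from the background more than the narrow ones did. Examples of narrow peaks are Pcdhb17 (425 bp, from 1.16 in sham to 2.80 in ICH), Pcdhb18 (141 bp, from -0.13 to 1.51) and Pcdhb11 (175 bp, from 0.51 to 2.26). Examples of wide ones are Pcdhb21 (2025 bp, from 3.21 to 2.07), Pcdh17 at its first base (3050 bp, from 3.40 to 2.86) and Pcdhga7 (26789 bp, from 3.18 to 2.66).

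In acupuncture against ICH the same splits gave 2 of 19 narrow and 10 of 16 wide peaks higher (15.5% and 26.0% of all), and in acupuncture against sham 11 of 15 and 8 of 28 (66.0% and 44.0%). The first of these shares the ICH samples with the comparison above, and its values are set beside it without a test. Pcdhb17's narrow peak went from 2.86 in ICH to 1.47 in acupuncture, Pcdhb18's from 1.502 to -0.02 and Pcdh17's peak 1266 bp from the gene's end from 2.09 to 1.04. The largest decrease was on Pcdha11 (375 bp, from 3.99 to 1.86), and the largest increase was on Pcdh15 (76434 bp, from -0.58 to 1.29), a gene known for the tip links of hair cells. Both rows had low input levels, with means of 0.717 and 0.942 FPKM, and were not tested. Pcdh9, lower in RNA after acupuncture, had 0.88 in sham and 1.41 in ICH at its last narrow peak, and 1.49 in ICH and 1.02 in acupuncture in the other table.

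**Figure D5:**
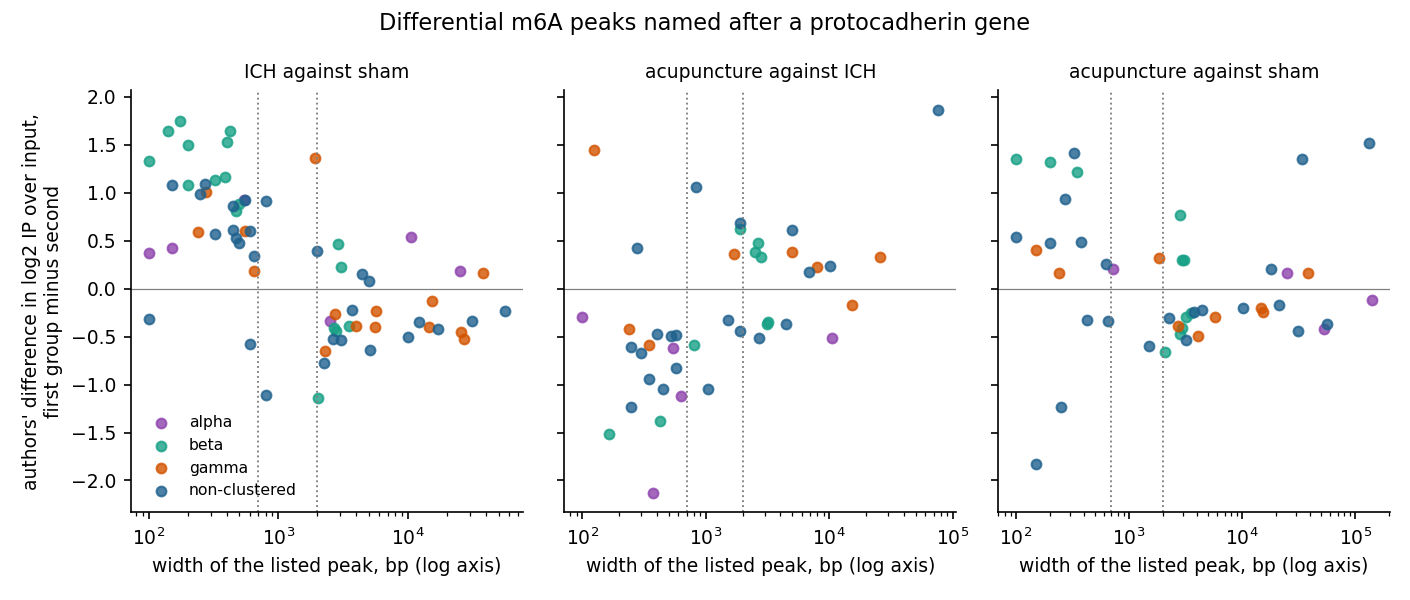
The authors' difference in log2 IP over input (first group minus second) for each differential peak named after a protocadherin gene, against the width of the peak in bp (log axis), coloured by class; dotted lines mark 700 and 2000 bp. In ICH against sham 29 of 31 peaks left of the first line lie above 0 and 24 of 31 peaks right of the second lie below it.

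The shared last exons of the alpha and gamma clusters each carried listed peaks that belong to the cluster, not to the gene named. The peak at chr18:37187119-37187661 (GRCm38), named Pcdhac1, lies in the span of all 14 alpha genes. It had a log2 of 1.12 in sham and 2.04 in ICH, and 2.07 in ICH and 1.45 in acupuncture in the other table. The gamma cluster's peak at chr18:37841633-37841873, named Pcdhgb6, lies in the span of all 22 gamma genes. It had 0.72 in sham and 1.31 in ICH (authors' adjusted p = 6.07e-57), 1.32 in ICH and 0.90 in acupuncture, and 0.86 in acupuncture and 0.70 in sham. Over the same libraries the summed FPKM of the 14 alpha genes was 26.2 to 28.9 in sham, 24.2 and 32.2 in ICH and 21.0 and 20.2 in acupuncture, and that of the 22 gamma genes was 109 to 116, 128 and 118, and 117 and 114.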

How the data were processed

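Expression values are the deposited FPKM of the authors, 1 column per input library; 2 columns that match no sample were not used. Per the submitters' processing notes fastp, HISAT2, HOMER, StringTie and edgeR were run, with no versions or roles. The notes name GRCh38 and hg38, while gene IDs and coordinates are those of mouse GRCm38. Peak tables hold the authors' deposited log2 values with their p-values, 1 list per group; it is not stated whether the unused samples entered them. Starts were moved to 1-based positions.

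From there, log2(FPKM + 1) of genes whose mean reached 1 FPKM was fitted with limma 3.58.1 (R 4.3.3), with 3 group means, a variance trend, two-sided tests and Benjamini-Hochberg adjustment over all genes; the joined comparison was a fit of 2 groups. The script was tested on simulated data. Sequences come from RefSeq's promoter table. Alternatives were another pseudocount, filter, normalization and variance model, the replicate number as a block, only the groups compared, each library left out, and stricter peak and overlap limits. Replicate numbers did not pair the samples: same-number correlations of deviations ran from -0.015 to 0.094. Named genes are members called, otherwise the 6 smallest p of a comparison, the 5 highest of each class and members with differential peaks. The members and lists were chosen with earlier results of these data known.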

Additional observations from a re-analysis of the deposited data

Results flagged for a closer look

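Over the 4 libraries of both haemorrhage groups, 25 protocadherin genes were checked for a library far from the others, and 2 had one; a check of this kind picks out some groups by chance alone. Pcdha4, a variable alpha gene, had 8.87 FPKM in ICH replicate 2 against 0.319, 0.378 and 1.504 in the other 3 libraries, a gap of 0.861 of the whole range. Pcdhb7, a beta gene, had 2.42 FPKM in acupuncture replicate 2 against 1.52, 1.59 and 1.62, a gap of 0.891 of the range.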

How the results depend on the processing

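All 10 tested non-clustered genes were lower in acupuncture than in ICH and than in sham under every alternative that kept all libraries, and 9 or 10 were when 1 library was left out. The count was kept to these 10 genes under every filter. The filter, the variance trend and the groups in the fit leave each fold change as it was. Only the pseudocount, quantile normalization and the replicate block could therefore alter the count with all libraries kept. Among class medians, counts and peak summaries, 185 values stayed near the main value under alternatives that kept all libraries, 25 moved, 3 counts rose and 5 fell by over 1.5 times. Whether medians near 0 kept their sign was not counted. The count of called members in ICH against sham was 0 with no filter on low values, with the replicate block and with only the groups compared. Of all genes, these fits called 2.14%, 2.57% and 4.87%. In acupuncture against ICH the count was 1 with a minimum of 0.1 FPKM (0.0292% of all genes). In acupuncture against sham it was 0 with the replicate block and 6 with only the groups compared (5.49% and 23.5%). In the joined comparison it was 1 with the contrast added after the data were seen (10.6%). Without sham replicate 1 the share of all genes called went from 5.68% to 2.83% in ICH against sham. In acupuncture against sham that share went from 11.7% to 6.15%. The counts below cannot be read apart from such shares. Leaving out 1 library gave 0 to 4, 0 to 8, 1 to 6 and 0 to 2 called members in these 4 comparisons; where that left 1 ICH or 1 acupuncture library, it was assumed to vary like the other groups. Pcdha4 in ICH against sham ranged from -0.036 without ICH replicate 2 to 1.94 without ICH replicate 1. Pcdhgb1 in acupuncture against sham was called at -1.16 without acupuncture replicate 1 and at 1.17 without replicate 2.

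The beta median became -0.13 in ICH against sham, -0.17 in acupuncture against sham and -0.14 in the joined comparison with quantile normalization. In acupuncture against sham the alpha median was -0.015 with a minimum of 0.1 FPKM, -0.024 with no filter and -0.42 with quantile normalization, the beta median -0.12 with a minimum of 0.1 FPKM and -0.11 with no filter, and the gamma median -0.22 with the replicate block. The joined alpha median was -0.32 with a pseudocount of 0.1. Leaving out 1 library gave alpha medians of -0.27 to -0.12 and beta medians of -0.071 to -0.0059 in acupuncture against ICH, alpha -0.34 to -0.13, beta -0.15 to -0.0086 and gamma -0.22 to -0.048 in acupuncture against sham, and alpha -0.30 to -0.10 in the joined comparison. The cause of these shifts was not tested.

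With peaks of a log2 of at least 1, 92 sham peaks remained, and the medians were 2.25, 1.89 and 1.91 in sham, ICH and acupuncture. Of these sham peaks, 92.4% and 89.1% overlapped ICH and acupuncture peaks, and 81.3% of ICH peaks overlapped sham peaks. Of all such peaks, 85.1%, 80.5% and 61.7% did. With an adjusted p under 0.01 the medians were 1.48, 1.79 and 1.71. With a reciprocal overlap of 50%, sham peaks were shared at 59.3% with ICH and 59.3% with acupuncture (53.0% and 54.5% of all peaks). ICH peaks were shared at 53.9% with sham and 57.8% with acupuncture (46.7% and 52.7% of all). Acupuncture peaks were shared at 55.8% with sham and 59.9% with ICH (52.5% and 57.5% of all). Without counts, the depth behind low genes is unknown.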

Other observations

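The spread between libraries of the same group was wider than over all genes for some protocadherin classes and narrower for others. The median range on the log2 scale of FPKM + 1 was 0.19, 0.62 and 0.10 for the 8 tested alpha genes in sham, ICH and acupuncture, where all genes had 0.16, 0.27 and 0.13. The 13 beta genes had 0.19, 0.19 and 0.11, and the 20 gamma genes 0.40, 0.25 and 0.24. The 10 non-clustered genes had 0.20, 0.22 and 0.31. Among the classes within a group, alpha genes were thus widest in ICH, gamma genes in sham and non-clustered genes in acupuncture, with no test. A range tends to grow with the number of libraries, and sham had more libraries than ICH or acupuncture. The ranges of a class therefore cannot be compared between sham and the other groups.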
